A study of Mus musculus with 2 samples.

Results

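The genes described here control the passage of cells from G1 into S phase and copy the DNA once they have passed: 45 named genes, of 12393 genes that could be read from 2 Affymetrix MOE430A arrays of mouse cochlea at embryonic day 18.5. They were chosen by function and not by their values, though with earlier results of these data known. They comprise the D and E cyclins with their kinases, the cyclin-dependent kinase inhibitors, the retinoblastoma family, 4 E2F factors, and the proteins that license origins, load the replicative helicase, supply nucleotides and synthesise DNA. All 45 were measured, by 84 probe sets, and each gene was read from its probe set of highest mean level, called here its strongest probe set.

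The study asked which genes differ between cochleae with and without insulin-like growth factor I. The mice carried a targeted disruption of *Igf1* on a C57BL/6J background, heterozygous parents were mated, and homozygous null embryos were set against wild-type embryos, with no treatment of either. Null embryos of this background do not live past birth. Each array took the RNA of 8 cochleae, dissected with the otic capsule and without vestibular tissue, so the RNA came from several embryos and from cartilage, nerve and other cells as well as the sensory epithelium. There was 1 array for each title. The array whose title reads +/+ is called here the plus array, and the array whose title reads −/− the minus array.

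The labels did not settle which array was null. On the plus array the source name and the description both gave the null genotype, and on the minus array both gave the wild type, so no direction below is tied to a genotype. The disrupted gene was present on both arrays. The 3 probe sets of *Igf1* stood at 11.42, 8.11 and 7.78 on the plus array and at 11.03, 7.37 and 7.23 on the minus array, on a log2 scale. After the shift common to all probe sets was removed, these were differences of −0.42, −0.75 and −0.58. Every difference below is on that log2 scale, the minus array less the plus array, less the median difference of 0.022 over all probe sets. With 1 array per title no test could be made, and every value is only as precise as a single array allows. The only repeat measurement was the reading of a gene by more than 1 probe set.

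In the textbook account, mitogens raise the D cyclins, which activate CDK4 and CDK6. These kinases, and then cyclin E with CDK2, phosphorylate the retinoblastoma protein and its relatives p107 and p130, and the E2F factors that these hold in check then drive the genes needed for S phase, among them those for the MCM helicase subunits, origin licensing factors and nucleotide-making enzymes. Inhibitors of the INK4 family bind CDK4 and CDK6, while p21, p27 and p57 of the CIP/KIP family act on several cyclin-kinase complexes. In the organ of Corti, p27 is known for holding the precursors of hair cells and supporting cells out of the cell cycle before birth.

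Many S-phase genes are known E2F targets, so the letters of the E2F site were looked for near the gene starts. The letters TTTGGCGC, TTTGCCGC, TTTCGCGC and TTTCCCGC, which are the common forms of the E2F site, were searched on both strands in RefSeq windows from 250 bases before to 50 bases after the gene start (build GRCm38.p6). Of the 45 genes, 36 had a window and 13 of these, or 36.1%, held at least 1 such word. The share was 4.07% of the 9887 measured genes with a window and 2.26% of all 32851 windows. A word was present in 4 of 6 windows of the *Pcna* and MCM group and in 3 of 4 of the origin licensing group. None was found in the 4 windows of the nucleotide supply group, in the 3 each of the D cyclin and kinase group and the INK4 inhibitors, in the 2 of the CIP/KIP inhibitors or in that of *Slbp*. The windows of the MCM and licensing genes are shown because these groups held the words most often. Each line gives 30 bases on the strand of the gene, with the E2F word in capitals (12 capitals are a pair of overlapping words on opposite strands), and the position of the first capital counted from the gene start.
*Mcm3*, chr1:20820275-20820304, minus strand, position 20: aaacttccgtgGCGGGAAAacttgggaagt
*Mcm3*, chr1:20820263-20820292, minus strand, position 39: cgggaaaacttgggaagtTTTGGCGCcaag
*Mcm5*, chr8:75109347-75109376, plus strand, position −153: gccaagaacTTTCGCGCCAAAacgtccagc
*Mcm6*, chr1:128359795-128359824, minus strand, position −110: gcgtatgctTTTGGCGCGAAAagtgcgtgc
*Mcm6*, chr1:128359734-128359763, minus strand, position −47: gattggacgggTTTGGCGCgaagtagctca
*Mcm7*, chr5:138172030-138172059, minus strand, position −165: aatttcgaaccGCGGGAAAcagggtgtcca
*Mcm7*, chr5:138171849-138171878, minus strand, position 17: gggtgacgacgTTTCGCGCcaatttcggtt
*Cdc6*, chr11:98908002-98908031, plus strand, position −138: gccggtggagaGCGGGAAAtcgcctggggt
*Cdt1*, chr8:122568035-122568064, plus strand, position 33: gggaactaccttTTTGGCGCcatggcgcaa
*Orc1*, chr4:108579416-108579445, plus strand, position −27: ttcggttagtgGCGCGAAAagttttctcct

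*Mcm3*, *Mcm6* and *Mcm7* each held words at separate places, on either side of the start in *Mcm7*. The remaining genes with a word were *Cdk2*, *E2f3*, *Rbl1*, *Lig1*, *Pola1* and *Rfc3*. A word is a run of letters and not a measured binding site. Genes with and without a word overlapped around zero on the arrays: of the 13 genes with a word 6 were higher and 7 lower on the minus array, with a median difference of −0.029, and of the 23 without one 13 were higher and 10 lower, with a median of 0.0031.

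Across the 45 genes the arrays were close. On the minus array 21 genes were higher and 24 lower, that is 46.7% higher against 50.5% of all genes measured. The median difference was −0.020, against 0.0028 over all genes, and the middle of the list ran from −0.12 to 0.11 between its quartiles. The limit of 1 log2 unit, which is the fold limit of the study's methods, was passed upward by 1 gene, *Cdk6*, which was listed at 0 on the plus array, and 5.54% of all genes passed it in that direction. None passed it downward, where 4.07% of all genes did. With a limit of 0.5 there were 2, *Cdk6* and *E2f3*, against 20.6% of all genes. In bulk RNA, fewer cells of a type and less RNA per cell cannot be told apart.

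The share of genes past either limit depended on the level. Weakly read genes differed widely between the arrays, and 33 of the 45 genes lay above the median level of all genes, 7.10. Of these 33 none passed 0.5, against 2.55% of the 6196 genes above that level, and 15 were higher, 45.5% against 49.1%. Their median absolute difference was 0.12, against 0.095 for all genes above the median level.

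**Figure D1:**
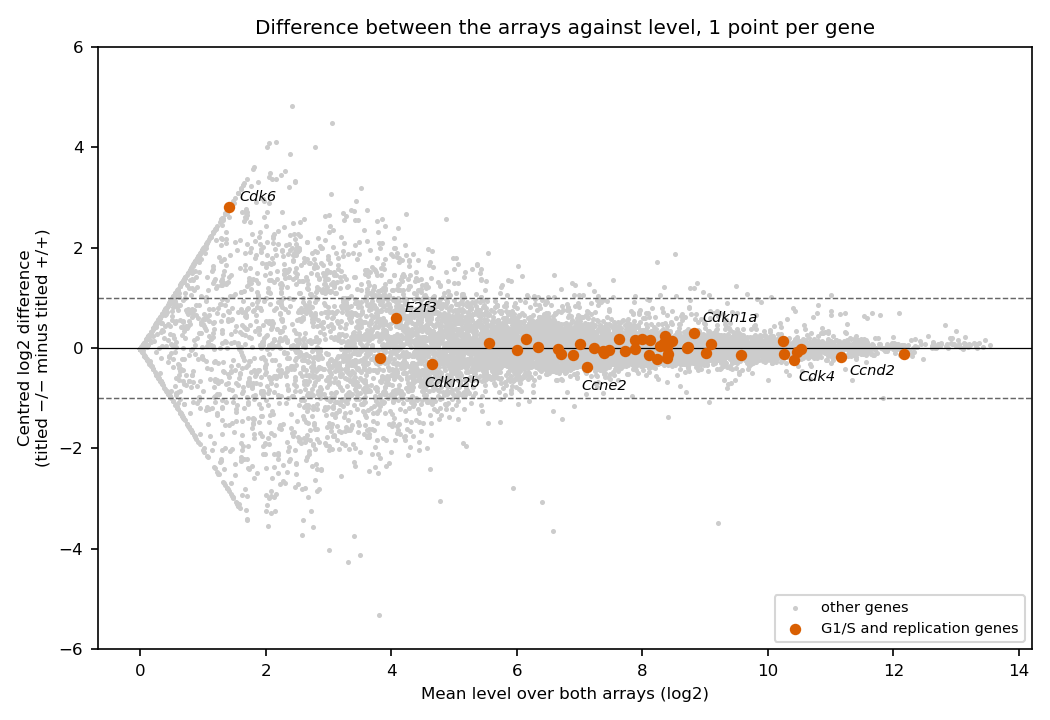
Centred log2 difference, minus array less plus array, against the average log2 level of the gene on both arrays; grey points are all other genes, orange points the 45 G1/S and replication genes, and dashed lines the limit of 1 log2 unit. Grey points fan out at low levels, and of the orange points *Cdk6*, listed at 0 on the plus array, lies beyond a dashed line, while those above a level of 7.10 stay within 0.5 of zero.

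The spread between probe sets of the same gene gave a scale for single differences. Its standard deviation was 1.10 for probe sets up to a level of 5.63, 0.23 from there to 7.86, and 0.098 above 7.86. By that scale 20 of the 45 genes (44.4%) differed by more than the spread at their level, 9 of them higher and 11 lower, against 34.6% of all genes. Most of these stood in the highest range, where 18 of 26 of the listed genes (69.2%) exceeded the spread, against 45% of all 4518 genes in that range. That range has 1 spread for all its levels, and these shares are not matched for level inside it. The median absolute difference of the probe sets nearest in level was 0.11 for *Cdk2*, at a mean level of 7.99. It was 0.070 for *Cdkn1c*, at 12.16. This scale does not hold the difference between 1 dissection and another, which 2 arrays cannot show, and it was chosen after values had been seen. A finer match by level set each gene against the 1000 probe sets nearest to it. Fewer than 10% of these differed by as much for 4 of the 45 genes, and fewer than 20% for 8. By construction about 10% and 20% of all probe sets fall under these limits. No gene of the list had a share under 5%, and 22 had a share over 50%. Of 23 genes with more than 1 probe set, 13 (56.5%) had all their probe sets in 1 direction, against 46.3% of all such genes. With only probe sets above the median level of probe sets the shares were 9 of 13 (69.2%) and 56.4%.

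**Figure D2:**
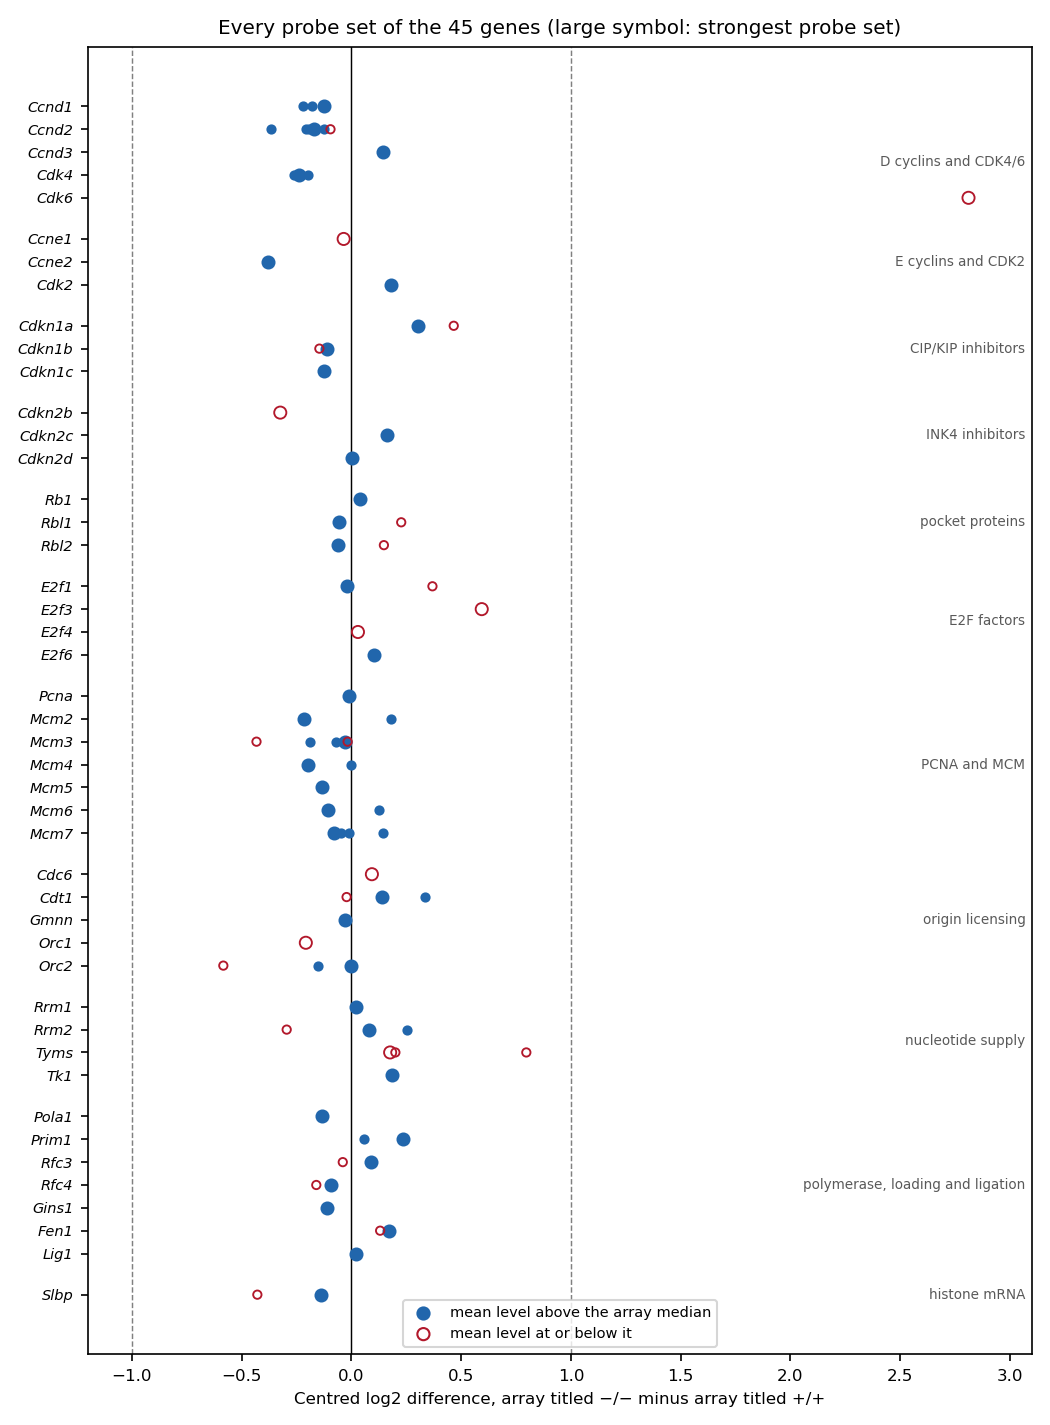
Centred log2 difference of each of the 84 probe sets, with genes in rows grouped by role; large symbols are the strongest probe sets, filled symbols have a mean level above the median probe set and open symbols one at or below it, and dashed lines mark the limit of 1 log2 unit. All probe sets of *Ccnd1*, *Ccnd2* and *Cdk4* lie left of zero and those of *Cdkn1a* right of it, whereas *Mcm2*, *Mcm6* and *Mcm7* have probe sets on both sides.

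Of the cyclins that open G1 and their kinases, *Ccnd1*, *Ccnd2* and *Cdk4* were lower on the minus array by each of their probe sets, while *Ccnd3* and *Cdk6* were higher. *Ccnd2*, the gene of cyclin D2, had 7 probe sets, and all 7 were lower on the minus array, by −0.095 to −0.36. Its strongest probe set stood at 11.24 on the plus array and 11.09 on the minus array, a difference of −0.17. *Ccnd1* (cyclin D1) stood at 10.32 and 10.21, and its 3 probe sets differed by −0.12, −0.22 and −0.18. *Cdk4*, the kinase partner of the D cyclins, was at 10.53 on the plus array and 10.31 on the minus array, 1.18-fold lower. Its 3 probe sets read −0.24, −0.20 and −0.26, close to each other. Of the 1000 probe sets nearest to *Cdk4* in level, 6.7% differed by as much or more. The other D cyclin went the opposite way, since *Ccnd3* (cyclin D3) stood at 10.15 and 10.32, a difference of 0.14 from its only probe set. *Cdk6*, the second kinase that D cyclins activate, was read by a single probe set listed at exactly 0 on the plus array and at 2.83 on the minus array. Values at 0 can be failed estimates, so no fold is given; 8.3% of probe sets near that level differed by as much, and with low values raised to the 25th percentile of each array the difference was 0.

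Cyclin E and its kinase did not move as a group. *Ccne2* (cyclin E2) was at 7.30 on the plus array and 6.94 on the minus array, a difference of −0.38 and the most negative of the list. It was 1.30-fold lower, it rests on 1 probe set, and 8.4% of probe sets of like level differed by as much. *Ccne1* (cyclin E1) was at 6.01 and 6.00. *Cdk2*, the kinase that E cyclins activate, stood at 7.89 and 8.09, a difference of 0.18. Of these genes *Ccne2* and *Cdk2* exceeded the probe set spread of their range of level, in opposite directions. For *Cdk2*, 26.5% of probe sets of like level differed by as much.

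Among the CIP/KIP inhibitors, *Cdkn1a*, which encodes p21 and is induced by p53 and in cells leaving the cycle, was higher on the minus array. Its probe sets stood at 8.66 and 6.19 on the plus array and at 8.99 and 6.68 on the minus array, differences of 0.31 and 0.47. The first was 1.24-fold, and 5.9% of probe sets of like level differed by as much, the smallest share of the list. *Cdkn1b*, which encodes p27, was lower by both of its probe sets, at 8.46 and 3.86 on the plus array and 8.37 and 3.73 on the minus array (−0.11 and −0.15). *Cdkn1c*, which encodes the imprinted inhibitor p57, stood at 12.21 and 12.11, a difference of −0.13. Of probe sets of like level 39.6% differed by as much as *Cdkn1b* and 23.7% by as much as *Cdkn1c*. Both exceeded the probe set spread of 0.098, as 45% of all genes of that range of level did.

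The INK4 inhibitors, which act on CDK4 and CDK6 alone, were each read by 1 probe set. *Cdkn2c* (p18) was at 7.79 on the plus array and 7.98 on the minus array, a difference of 0.16. *Cdkn2d* (p19), which helps to keep hair cells postmitotic, was at 8.70 and 8.72, and its difference of 0.0031 turned to −0.013 with quantile normalization. *Cdkn2b* (p15) was read weakly, at 4.81 and 4.50, and 64.4% of probe sets of that level differed by at least its −0.32.

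The pocket proteins differed by at most 0.060 in either direction at their strongest probe sets, and the E2F factors by more in *E2f6* and *E2f3*. *Rb1*, the retinoblastoma gene, was at 8.25 and 8.31, a difference of 0.038. Its relatives *Rbl1* (p107) and *Rbl2* (p130) stood at 7.39 and 7.75 on the plus array and at 7.35 and 7.71 on the minus array, differences of −0.058 and −0.060. Neither relative had its weaker probe set on the same side, as these read 0.23 and 0.15. *E2f6*, a repressive E2F that does not bind pocket proteins, was at 8.29 and 8.41 (0.11), just past the probe set spread, and 45.2% of probe sets of like level differed by as much. *E2f1*, an activator of S-phase genes, stood at 6.66 on both arrays, and *E2f4*, a factor found mostly with pocket proteins in resting cells, at 6.32 and 6.37. The differences of these last genes, −0.020 and 0.030, changed sign with the scaling, to 0.0017 for *E2f1* without centring and −0.0031 for *E2f4* with quantile normalization. *E2f3*, another activator, gave 0.59 from a weak probe set at 3.77 and 4.38, while 49.2% of the probe sets nearest in level differed by at least that much.

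The sliding clamp gene *Pcna* and the 6 subunits of the MCM2-7 helicase, which unwinds DNA at the fork, were all lower on the minus array by their strongest probe sets, 7 of 7, against 49.5% of all genes. The median difference was −0.11. For *Pcna*, however, the levels were 10.52 and 10.53, and the difference of −0.0098 was 0.012 without centring. *Mcm2* was at 8.32 on the plus array and 8.13 on the minus array (−0.22), *Mcm4* at 8.48 and 8.31 (−0.20), and *Mcm5* at 8.16 and 8.05 (−0.13). *Mcm6* stood at 9.05 and 8.97 (−0.11), *Mcm7* at 10.50 and 10.44 (−0.079), and *Mcm3* at 7.88 on both (−0.029). The other probe sets did not all follow. *Mcm3* was lower by all 5 of its probe sets, down to −0.43 for the weakest. By contrast the second probe sets of *Mcm2* and *Mcm6* read 0.18 and 0.13, the weakest of *Mcm7* read 0.14, and the weaker one of *Mcm4* read −0.00073. As the mean over probe sets, *Mcm2* differed by −0.018 and *Mcm6* by 0.0097, so for these genes the direction belonged to the strongest probe set. Of the 4 genes that hold E2F words in the windows shown, *Mcm5* and *Mcm6* exceeded the probe set spread and *Mcm3* and *Mcm7* did not. Among probe sets of like level, 38.4% differed by as much as *Mcm5* and 39.7% by as much as *Mcm6*.

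**Figure D3:**
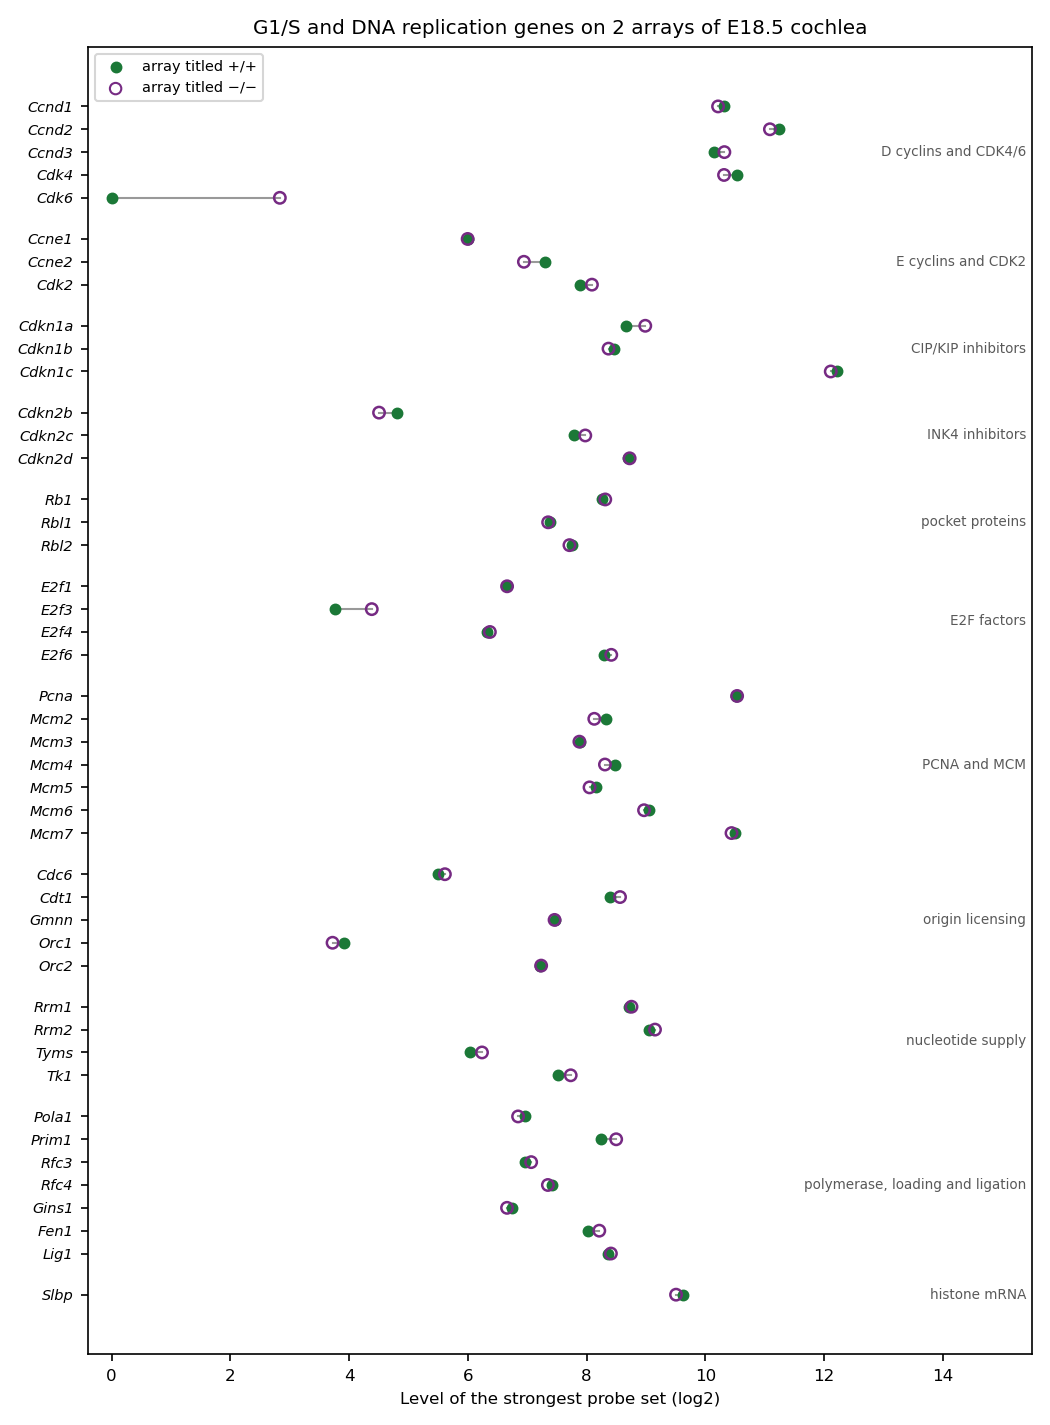
Log2 level of the strongest probe set of each of the 45 genes on the plus array (filled green, +/+ in the key) and the minus array (open purple, −/− in the key), with genes grouped by role and a line between the symbols of a gene. The symbols overlap or touch for most genes, and the longest lines belong to *Cdk6* (0 and 2.83) and *E2f3* (3.77 and 4.38), both read weakly.

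Origin licensing, in which the origin recognition complex with CDC6 and CDT1 loads the MCM helicase in G1, gave no common direction. *Cdt1* was at 8.40 on the plus array and 8.56 on the minus array (0.14), with a second probe set higher by 0.33 and another listed at 0 on both. *Gmnn*, which encodes the CDT1 inhibitor geminin, was at 7.47 and 7.46 (−0.030). The loader gene *Cdc6* stood at 5.50 and 5.61 (0.094), and *Orc1*, the largest subunit of the recognition complex, at 3.91 and 3.72 (−0.21), a level at which 83% of probe sets differed by as much. *Orc2*, another subunit, was at 7.21 and 7.23. Its difference of 0.00043 turned to −0.012 with quantile normalization and −0.0086 with the loess fit, and its weaker probe sets read −0.15 and −0.58.

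The 4 genes of nucleotide supply were all higher on the minus array, against 50.5% of all genes, with a median of 0.13. They stayed so without centring, with quantile normalization and with a loess fit of the difference on the level. *Tk1* (thymidine kinase 1) was at 7.52 and 7.73 (0.18) and *Tyms* (thymidylate synthase) at 6.04 and 6.24 (0.18). The 3 probe sets of *Tyms* were all higher, from 0.18 to 0.80, though the weaker ones lay at or under a level of 3.59. *Rrm2*, the small subunit of ribonucleotide reductase that is made in S phase, stood at 9.05 and 9.15 (0.079), with other probe sets at 0.26 and −0.30. *Rrm1*, the large subunit, was at 8.71 and 8.75, and its probe sets read 0.023 and 0.019. None of these genes exceeded the probe set spread at its level, so the shared direction rests on small values.

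The polymerase, clamp loading and ligation genes were split, 4 higher and 3 lower. *Prim1*, the catalytic subunit of the primase that begins each DNA strand, was at 8.24 on the plus array and 8.50 on the minus array (0.24), with a second probe set at 0.059. *Pola1*, the catalytic subunit of the polymerase α that works with it, was at 6.96 and 6.84 (−0.13). *Fen1*, the flap endonuclease that trims Okazaki fragments, stood at 8.02 and 8.21, and both of its probe sets were higher (0.17 and 0.13). *Lig1*, the ligase that joins the fragments, was at 8.37 and 8.41 (0.021). Of the clamp loader, *Rfc3* was at 6.96 and 7.07 (0.088) and *Rfc4* at 7.42 and 7.35 (−0.093), the latter lower by both probe sets. *Gins1*, a subunit of the GINS complex that activates the helicase, was at 6.75 and 6.66 (−0.11). *Slbp*, which encodes the stem-loop binding protein needed for histone mRNA in S phase, stood at 9.62 and 9.51 (−0.14), with a weak second probe set at −0.43. *Prim1*, *Fen1* and *Slbp* exceeded the probe set spread. Differences as large were shown by 11.3%, 27.4% and 28.5% of probe sets of like level, in that order.

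**Figure D4:**
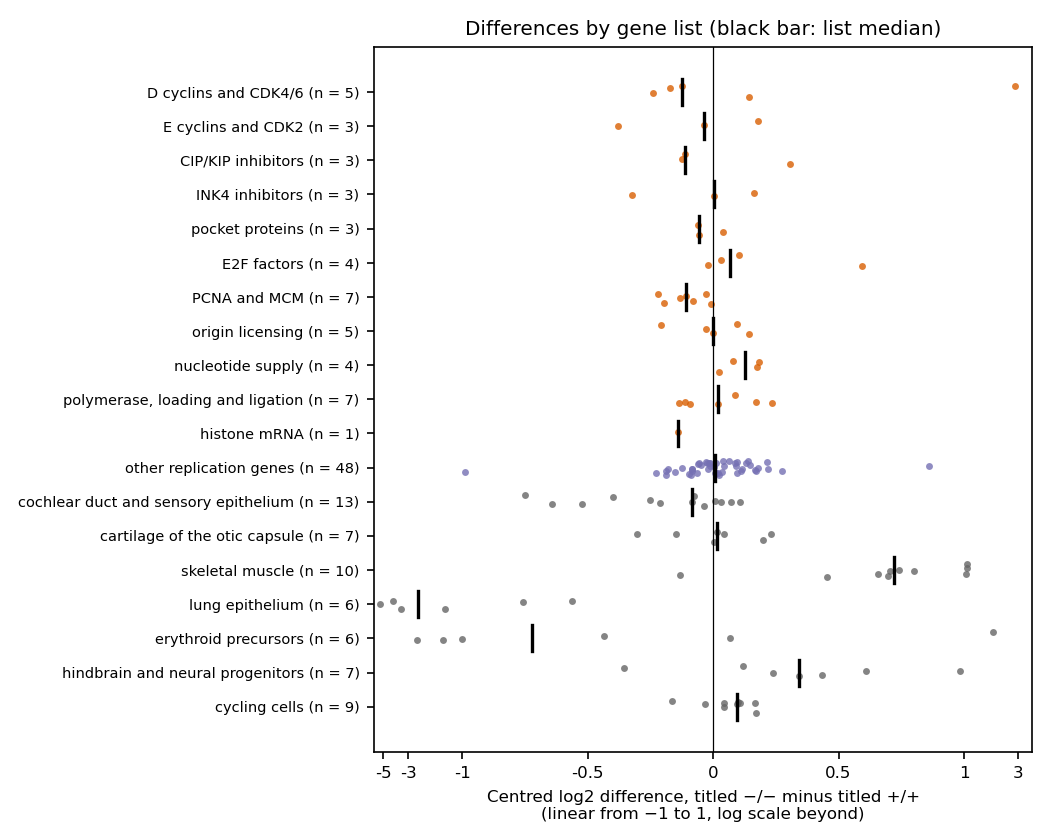
Centred log2 difference of each gene, minus array less plus array, by role group (orange), for the other replication genes (purple) and for the marker lists (grey), with a black bar at each list's median; the axis is linear from −1 to 1 and logarithmic beyond. The medians of the role groups lie between −0.14 and 0.13, whereas those of the muscle, erythroid and lung lists lie at 0.72, −0.72 and −2.46.

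A list of 62 further replication and S-phase genes was written from the pathway. Of these 48 were measured, 26 higher and 22 lower (54.2% higher, against 50.5% of all genes), with a median of 0.0092 and none past 1. The probe set spread was exceeded by 8 of the 48 (16.7%), 4 in each direction, against 34.6% of all genes and 44.4% of the 45 genes above. In the highest range of level it was exceeded by 7 of 17 (41.2%), against 45% of all genes there. By level the leading genes were *Rpa1* (−0.097) and *Rpa3* (0.020) of the single-strand binding complex, the deubiquitinase gene *Usp1* (−0.065), the E2F partner *Tfdp1* (−0.086), the maintenance methyltransferase *Dnmt1* (0.15), the fork protection gene *Tipin* (−0.017), the checkpoint gene *Topbp1* (−0.024), and *Skp2* (−0.19), whose ubiquitin ligase marks p27 for destruction. *Skp2* was lower by 5 of its 6 probe sets. In this list *Cdkn2a*, named here after its value was seen, was nearest to the limit, at 4.31 and 3.34, a difference of −0.99 from a weak probe set that became −1.01 with quantile normalization. An E2F word was held by 12 of the 39 genes of this list with a window (30.8%).

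Genes of proliferating cells that act later in the cycle differed little. Of 9 measured genes of a cycling-cell list 7 were higher on the minus array, 77.8% against 50.5% of all genes, with a median of 0.097, and the lower ones were *Bub1* (−0.16) and *Aurkb* (−0.031), named after their values were seen. The second probe set of *Bub1* read 0.17, and the mean over its probe sets was 0.0044. *Mki67*, a marker of all cycling cells, was at 9.37 and 9.49 (0.097), *Top2a*, which untangles chromosomes, at 9.55 and 9.67 (0.10), and the mitotic kinase gene *Cdk1* at 9.02 and 9.21 (0.17). Of probe sets of like level 47.9%, 41.3% and 19.6% differed by as much as these. *Foxm1*, a transcription factor of proliferating cells on which the study worked, stood at 6.29 and 6.56 by its strongest probe set (0.25), and its other probe sets read 0.38, −2.25 and 0.95. Of probe sets of like level 37.9%, 20.7%, 1.7% and 62.6% differed by as much as these, in the same order. The probe set at −2.25, which went the other way, stood at 5.16 on the plus array and 2.94 on the minus array.

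The RNA of marker genes of several tissues differed between the arrays as well, which does not tell numbers of cells from RNA per cell. Of all genes 50.5% were higher on the minus array and 49.5% lower. The cochlear list, led by *Oc90*, *Fgfr3* and *Tecta*, had all 13 genes above 0 on both arrays, 9 lower on the minus array, with a summed level of 12.79 and 12.66 in log2. Its median was −0.083, and the 4 higher genes were so by at most 0.11. *Tecta* differed by −0.52, as did 1.5% of probe sets of like level or more strongly. *Tectb* (−0.64) and *Coch* (−0.40), named after their values were seen, had shares of 1.4% and 3.5%. The cartilage list, led by *Col2a1*, *Col9a1* and *Matn1*, was at 14.75 and 14.82. Skeletal muscle genes, led by *Acta1*, *Mylpf* and *Tnnc2*, were higher in 9 of 10 cases with a median of 0.72, and their sum went from 14.14 to 14.83. Lung epithelial genes, led by *Sftpc*, *Sftpb* and *Sftpd*, were lower in 6 of 6, from a sum of 11.20 to 8.22, and hindbrain and neural progenitor genes, led by *Zic1*, *Dcx* and *Nes*, were higher in 6 of 7, from 10.48 to 11.18. Of the erythroid list, led by *Tfrc*, *Alas2* and *Slc4a1*, 4 of 6 were lower with a median of −0.72, from 9.86 to 9.74, with *Slc4a1* at −1.49, *Alas2* at −0.44, *Tfrc* at 0.069, and *Epb42* listed at 0 on the plus array. The muscle, lung, erythroid and neural medians were farther from zero than *Ccnd1*, *Ccnd2*, *Cdk4*, *Cdkn1a* or any MCM gene by its strongest probe set. These sizes are not matched for level, and weakly read genes differed widely. Above the median level of all genes lay 8 of 10 muscle genes, but 1 of 6 lung, 2 of 6 erythroid and 3 of 7 neural genes. The neural median was that of *Zic2* (0.34), and 31.1% of probe sets of like level differed by as much, against 5.9% for *Cdkn1a*. For the leading genes, in the order named, the shares were 3%, 1.3% and 0.9% in muscle and 0%, 0.3% and 6.1% in lung. They were 60.6%, 2.7% and 3% in the erythroid list and 0.4%, 2.5% and 50.6% in the neural list. The part of these other cells in the differences of the G1/S and MCM genes was not tested.

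The order of the arrays in the G1/S and replication genes held for most of them when the scaling was changed. The changes of scaling moved no gene by as much as the probe set spread at its level. A sign could thus turn only for a difference smaller than that spread, and the share of all genes that kept theirs was not computed. Of the 48 further replication genes, *Dbf4*, *Pold3*, *Pole2*, *Rpa2*, *Tipin* and *Hat1* changed sign. Of 45 genes 40 kept their sign without centring, with quantile normalization and with a loess fit, and the 5 that did not were *Cdkn2d*, *E2f1*, *E2f4*, *Orc2* and *Pcna*, each within 0.030 of zero. The groups in which the strongest probe sets of every gene pointed 1 way, MCM with *Pcna* downward and nucleotide supply upward, had medians of −0.11 and 0.13. These groups hold only 7 and 4 genes, and of all genes 49.5% were lower and 50.5% higher. Both a size above the probe set spread and several probe sets all in 1 direction were found in 9 of 23 genes (39.1%), against 19.7% of all genes with several probe sets. These were *Ccnd1*, *Ccnd2*, *Cdk4*, *Cdkn1b*, *Mcm4* and *Slbp*, lower on the minus array (for *Mcm4* the second by only −0.00073), and *Cdkn1a*, *Prim1* and *Fen1*, higher on it. The second probe sets of *Cdkn1b* and *Slbp* were read weakly, and 88.1% and 37.6% of probe sets of their level differed by as much. The share of 19.7% spans all levels, and none matched for level was computed. Most of the listed genes, 33 of 45, lay above the median level. At high levels all genes exceeded the spread more often (45% in the highest range against 34.6%), and their probe sets pointed 1 way more often.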

How the data were processed

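RNA was labelled with biotin and hybridised to MOE430A arrays by the authors, whose methods name MAS5.0, RMA and multi-mgMOS of the PUMA package, without versions. The sources used here do not say which of these gave the numbers. Per probe set, the authors deposited a log2 level between 0 and 13.64, and the base was read from the values. Scaling between the arrays is not stated. The array labels give no batch.

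Of 22626 probe sets that are not controls, 20380 name 1 gene and 20351 matched RefSeq names (GRCm38.p6). Per gene the probe set of highest mean level was used, giving 12393 genes. Differences were centred on the median over all probe sets. The genes, the lists and the rules were chosen with earlier results of these data known: all 45 genes are named, with the 8 of highest level from the further replication list and the 3 of highest level from each marker list. The comparisons with the probe set spread, and the use of the second probe set, were added after values were seen. Alternatives were no centring, quantile normalization, loess (span 0.3), a floor at the 25th percentile, genes above the median level, the mean over probe sets, no _x_at or _s_at probe sets, and limits of 0.5 and 2. The scripts were tested on simulated data, in Python 3.11.15 with numpy 2.4.6, pandas 2.3.3 and statsmodels 0.14.6.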

Additional observations from a re-analysis of the deposited data

How the results depend on the processing

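With arrays so few, precision is limited by their number and no difference could be tested. No paired analysis was possible because each title has 1 array. The 1 gene past the limit of 1 log2 unit (*Cdk6*) was the only one of the 45 with a strongest probe set at 0, and the count became 0 with a floor at the 25th percentile, 0 with only genes above the median level, 0 with the second probe set of each gene, and 2 with a limit of 0.5. Of 23 genes with a second probe set 12 were higher by it, against 21 of 45 by the strongest. The count of other replication genes past the limit, 0, became 1 with quantile normalization and 1 with loess (*Cdkn2a*), and 2 with a limit of 0.5. The number of the 45 genes higher on the minus array ranged from 18 to 25 over the other scalings, floors and probe set choices that kept all 45, and 16 of 23 genes kept their sign by the second probe set.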
